A study of Rattus norvegicus with 5 samples.

Results

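Neuronal RNA-binding and splicing factors were followed in neurons of the rat striatum that had been captured one by one with a laser. The set holds 10 genes of 5 protein families: Rbfox1, Rbfox2 and Rbfox3, Elavl2, Elavl3 and Elavl4, Nova1, Celf2 and Celf4, and Khdrbs2. They were found by gene symbol in the authors' deposited comparison and read by Ensembl identifier from the counts, 10 of 32285 genes counted. All 10 passed the filter on low counts that left 13811 genes for testing. The authors' comparison holds 12054 genes, and 11904 of the genes tested have a symbol from it. Nearly any gene found this way would thus pass, so passing says little about these 10. The striatomesencephalic group (2 libraries) holds neurons that send axons to the midbrain, the direct pathway, and the striatopallidal group (3 libraries) holds neurons that send axons to the pallidum, the indirect pathway. Both were marked by a fluorescent retrograde tracer infused where their axons end. The labels give no strain, sex, age, treatment, number of cells or number of animals for either group, so p-values measure the spread between these libraries, which may be technical.

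RNA-binding proteins of these families decide which exons a neuron keeps and how long its transcripts last. Rbfox proteins bind UGCAUG beside alternative exons, and Rbfox3 is the antigen known as NeuN, the standard nuclear label of mature neurons. Elavl2, Elavl3 and Elavl4 (HuB, HuC and HuD) are the neuronal Hu proteins, which bind stretches rich in U and stabilise transcripts or alter their splicing. Nova1 binds short CA-containing repeats and was first known as an antigen in a paraneoplastic movement disorder. Celf proteins bind stretches rich in GU, and Khdrbs2 (SLM1) is a STAR-domain protein that regulates alternative splicing of neurexin transcripts. Counts per gene measure the transcripts of the factors themselves. They do not measure splicing, isoforms or protein.

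Library totals ran from 20845178 to 24805062 counts, so 3 counts, taken as the detection floor, equal 0.121 to 0.144 CPM (a gene's count relative to its library's total). Intervals and floors cover counting error only. Drd1, a dopamine receptor typical of the direct pathway, had 861 and 1084 CPM in the striatomesencephalic libraries, against 582, 311 and 415 CPM in the striatopallidal libraries. Drd2, the receptor typical of the indirect pathway, had 144 and 109.97 CPM in the striatomesencephalic libraries, against 606, 391 and 524 CPM in the striatopallidal libraries. Both receptors were present in both groups, and each was higher in every library of the group it is typical of. Striatopallidal replicate 2 stood apart from the other libraries, with Spearman correlations across genes of 0.785 to 0.820, where the other pairs had 0.845 to 0.907.

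No RNA-binding protein of the set passed the test between the 2 neuron types. Rbfox1 and Elavl2 were higher in all 3 striatopallidal libraries than in both striatomesencephalic libraries, and Khdrbs2 was higher in both striatomesencephalic libraries. For the other 7 genes the libraries of the groups overlapped in CPM. A count of 3 of 10 genes without overlap compares with 2917 of all 13811 genes tested, or 21.1%. With edgeR's quasi-likelihood test and Benjamini-Hochberg adjustment over all genes, 0 of 10 genes passed at 0.05, as did 0 of 13811 genes (0.0%). At an unadjusted p below 0.05 edgeR had 0 of the 10 genes and 839 of all genes (6.07%). DESeq2 called 0 of the 10 genes and 219 of 13187 genes with an adjusted p (1.66%), and at an unadjusted p below 0.05 it had Elavl2 and 1496 of 13723 genes (10.9%). With limma voom 0 of the 10 genes and 0 of all genes passed (0.0%), and at an unadjusted p below 0.05 it had Rbfox1 and 643 genes (4.66%). Of the 10 fold changes, 3 were positive and 7 negative in striatomesencephalic minus striatopallidal libraries, with a median of -0.12 on the log2 scale. Over all genes tested, 47.4% were positive and 52.6% negative, and the median was -0.06.

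**Figure D1:**
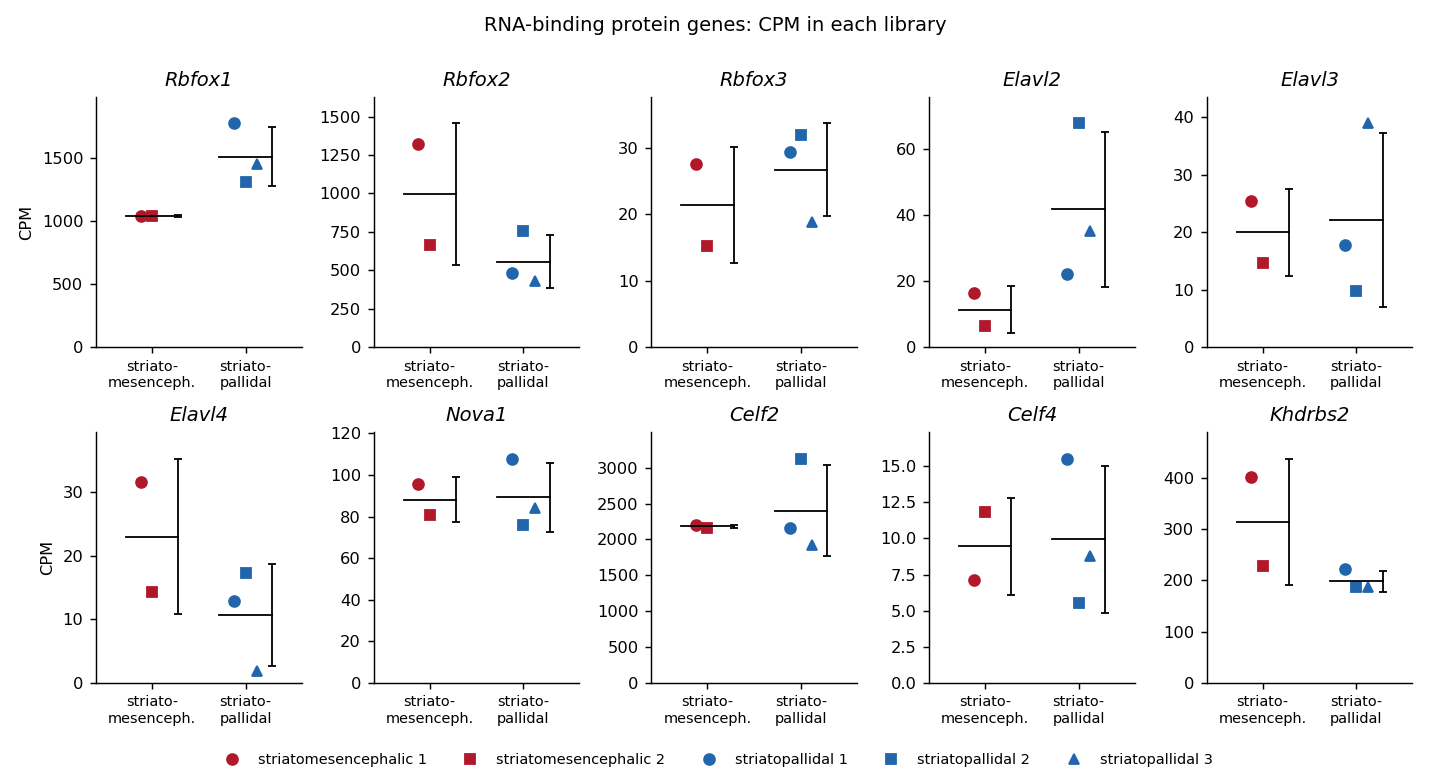
CPM (y axis, from 0) of each of the 10 genes in the 2 striatomesencephalic (red) and 3 striatopallidal (blue) libraries. Marker shapes give the replicate, horizontal lines the group mean and bars the SD. Rbfox1 and Elavl2 have all striatopallidal points above both striatomesencephalic points, and Khdrbs2 has the reverse.

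The promoters of Rbfox1, Elavl2 and Elavl4 are shown because Rbfox1 and Elavl2 had separate groups in the same direction while Elavl4, a paralog of Elavl2, had a fold change of the opposite sign. They come from RefSeq on build GRCr8, which is not the build of the counts, and 6 of the 10 genes had an entry. Each line gives the 250 bases before the listed transcript start, and other start sites of these genes were not examined. Capitals mark the E-box CANNTG and the GC box GGGCGG, which, with the TATA box TATAAA, were searched on both strands. No 2 of these matches overlap in the sequences shown.
Rbfox1, chr10:8999392-8999641, minus strand: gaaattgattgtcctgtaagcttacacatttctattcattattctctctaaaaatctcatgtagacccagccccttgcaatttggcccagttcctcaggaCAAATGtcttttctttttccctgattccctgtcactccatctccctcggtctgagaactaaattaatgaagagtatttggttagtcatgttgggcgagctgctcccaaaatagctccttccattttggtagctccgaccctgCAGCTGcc
Elavl2, chr5:111202288-111202537, minus strand: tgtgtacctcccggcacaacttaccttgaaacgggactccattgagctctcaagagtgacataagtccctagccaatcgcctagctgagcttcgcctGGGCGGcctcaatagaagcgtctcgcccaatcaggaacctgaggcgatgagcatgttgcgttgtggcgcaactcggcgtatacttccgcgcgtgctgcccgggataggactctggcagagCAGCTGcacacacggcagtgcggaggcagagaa
Elavl4, chr5:130367664-130367913, minus strand: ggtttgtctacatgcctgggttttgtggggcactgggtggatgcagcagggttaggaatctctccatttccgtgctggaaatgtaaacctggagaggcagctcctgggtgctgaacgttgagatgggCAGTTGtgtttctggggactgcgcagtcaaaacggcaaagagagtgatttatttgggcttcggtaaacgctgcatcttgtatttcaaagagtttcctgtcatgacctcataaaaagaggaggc

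The E-box was found in all 6 promoters and in 65.5% of 33469 rat promoters of this length. The GC box was found in the promoters of Elavl2, Elavl3 and Khdrbs2 and in 30.5% of all promoters, and the TATA box in none of the 6 and in 12.9% of all. Base composition ranged widely between the 6 promoters. Rbfox1 had 3 CG dinucleotides and Elavl4 had 6, against 14 in Nova1, 18 in Elavl2, 24 in Khdrbs2 and 35 in Elavl3, where the median of all promoters was 5. Rbfox1 and Elavl2, the genes higher in every striatopallidal library, thus lay on opposite sides of the median GC content of 51.2%, at 44% for Rbfox1 and 58.4% for Elavl2.

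Rbfox1, which regulates exons of many synaptic and ion channel genes, was lower in both striatomesencephalic libraries than in any striatopallidal library. It stood at 1046 and 1039.5 CPM in the striatomesencephalic libraries, against 1778, 1314 and 1454 CPM in the striatopallidal libraries. In CPM the striatomesencephalic libraries were nearly equal, while the striatopallidal libraries differed among themselves by more than the gap between the groups. Scaled by TMM, as in the edgeR test, the striatomesencephalic libraries had 1002 and 1021 CPM, against 1563, 1700 and 1367 CPM in the striatopallidal libraries. On that scale the gap between the groups was slightly larger than the range of the striatopallidal libraries. The log2 fold change of Rbfox1 was -0.61 ± 0.26 (SE), with an unadjusted p of 0.0539 and an adjusted p of 0.779 by edgeR. The fold change was between -0.69 and -0.54 whichever library was left out. Without striatopallidal replicate 2, the adjusted p was 0.583. In bulk samples, fewer cells with a transcript and less of it per cell cannot be told apart, which holds for every gene below.

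Rbfox2, which is also expressed outside neurons, had a fold change of the opposite sign to Rbfox1. It stood at 1319.7 and 667 CPM in the striatomesencephalic libraries, against 481, 754 and 434 CPM in the striatopallidal libraries. Striatomesencephalic replicate 1 was the highest of all, and striatopallidal replicate 2 lay above striatomesencephalic replicate 2, so the groups overlapped. The log2 fold change was 0.67 ± 0.50 (SE) with an adjusted p of 0.829 by edgeR. Library choice moved it more than for Rbfox1, to 0.13 without striatomesencephalic replicate 1 and 1.20 without striatopallidal replicate 2. Rbfox3 stood at 27.6 and 15.2 CPM in the striatomesencephalic libraries, against 29.4, 31.8 and 18.8 CPM in the striatopallidal libraries. The groups overlapped, and the log2 fold change was -0.45 ± 0.72 (SE). It was -0.91 without striatomesencephalic replicate 1, -0.09 without striatomesencephalic replicate 2, -0.08 without striatopallidal replicate 2 and -0.70 without striatopallidal replicate 3.

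Elavl2 had the largest fold change in size of the 10 genes. It stood at 16.4 and 6.32 CPM in the striatomesencephalic libraries, against 22.2, 67.6 and 35.2 CPM in the striatopallidal libraries. The groups did not overlap, but the striatopallidal libraries differed among themselves by more than the gap between the groups. The log2 fold change was -2.09 ± 0.92 (SE), with an unadjusted p of 0.0577 and an adjusted p of 0.779 by edgeR. By DESeq2 the unadjusted p was 0.0158 and the adjusted p 0.269. The highest value came from striatopallidal replicate 2, and without that library the log2 fold change was -1.27.

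Elavl4, the Hu protein studied for its part in axon growth, was the most uneven gene of the set, with its highest CPM 17.3 times its lowest. It stood at 31.6 and 14.3 CPM in the striatomesencephalic libraries, against 12.8, 17.3 and 1.83 CPM in the striatopallidal libraries. The last value rests on 41 counts, with an exact Poisson interval of 1.31 to 2.48 CPM at 95%, so the gap to the other libraries is larger than counting error. The groups overlapped through striatopallidal replicate 2. The log2 fold change was 0.91 ± 1.07 (SE) with an adjusted p of 0.902 by edgeR, and it was 0.26 without striatomesencephalic replicate 1 and 0.40 without striatopallidal replicate 3. Elavl3 stood at 25.4 and 14.6 CPM in the striatomesencephalic libraries, against 17.8, 9.76 and 38.9 CPM in the striatopallidal libraries. Its highest and lowest values both fell in the striatopallidal group, and the log2 fold change was -0.16 ± 0.78 (SE). The sign turned without striatomesencephalic replicate 2 (0.17) and without striatopallidal replicate 3 (0.45).

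Nova1 was the most even gene of the set, with its highest CPM 1.42 times its lowest. It stood at 95.7 and 80.7 CPM in the striatomesencephalic libraries, against 108 (replicate 1), 75.7 and 84.2 CPM in the striatopallidal libraries. The log2 fold change was -0.08 ± 0.44 (SE), and it was 0.02 without striatomesencephalic replicate 2. No order between the groups can be read from these values.

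Celf2, a splicing regulator also found outside neurons, was even in 4 of the 5 libraries. It stood at 2197 and 2164 CPM in the striatomesencephalic libraries, against 2159, 3124 and 1925 CPM in the striatopallidal libraries. Striatopallidal replicate 2 alone was high. The log2 fold change was -0.29 ± 0.40 (SE) with all libraries and 0.18 without that library, where both striatomesencephalic values exceeded the remaining striatopallidal ones. Celf4 stood at 7.10 and 11.9 CPM in the striatomesencephalic libraries, against 15.5, 5.52 and 8.79 CPM in the striatopallidal libraries. The groups overlapped with a log2 fold change of -0.07 ± 0.84 (SE), which became 0.27 without striatomesencephalic replicate 1 and 0.25 without striatopallidal replicate 1.

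Khdrbs2 stood at 402 and 228 CPM in the striatomesencephalic libraries, against 223, 187 and 187 CPM in the striatopallidal libraries. The groups were separate by a narrow margin, between 228 and 223 CPM, and they overlapped once libraries were scaled by TMM, at 385 and 224 CPM in the striatomesencephalic libraries against 196, 242 and 176 CPM in the striatopallidal libraries. In TMM-scaled CPM, 2 of the 10 genes had separate groups, Rbfox1 and Elavl2, against 21.6% of all genes tested. The log2 fold change was 0.57 ± 0.40 (SE), with an adjusted p of 0.820 by edgeR, and 0.13 without striatomesencephalic replicate 1.

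**Figure D2:**
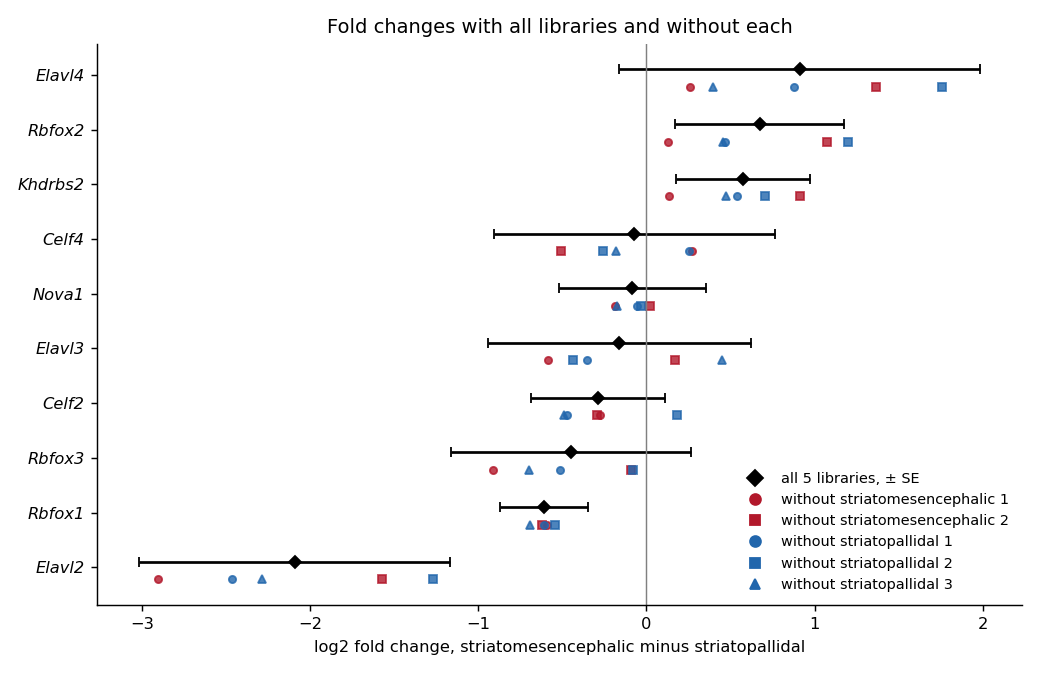
Log2 fold change of each gene (x axis, striatomesencephalic minus striatopallidal, on the edgeR scale). Black diamonds show all 5 libraries with the SE, and coloured markers the value after leaving out the library named in the legend. Rbfox1 stays between -0.69 and -0.54, whereas Celf2, Celf4, Elavl3 and Nova1 cross 0 when a library is left out.

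Leaving out a library changed how many genes had separate groups. The count was 5 without striatomesencephalic replicate 2, where Rbfox2 and Elavl4 joined, against 50.3% of all genes tested. It was 6 without striatopallidal replicate 2, where Rbfox2, Elavl4 and Celf2 joined, against 39.2% of all genes tested. Groups that are separate with all libraries stay so when a library is removed, so these counts can only stay or grow. Over the 5 ways of leaving out a library, the share of all genes ran from 31.0% to 50.3%, with 32.5% without striatopallidal replicate 1 and 48.1% without striatomesencephalic replicate 1.

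Ratios of counts within a family do not depend on how libraries are scaled, and the transcript length of each gene cancels when a ratio is compared between libraries. Of the 7 pairs that can be formed within the Rbfox, Elavl and Celf families, 4 had separate groups. The same held for 22.3% of the 56855116 pairs among the 10664 genes with at least 10 counts in every library. The pairs share genes and were examined after the counts were seen, so no test is given. Rbfox1 had 0.793 and 1.56 counts for each count of Rbfox2 in the striatomesencephalic libraries, against 3.70, 1.74 and 3.35 in the striatopallidal libraries. The highest striatomesencephalic ratio and the lowest striatopallidal ratio lay close together. The mean log2 ratio was 0.15 ± 0.69 (SD, n = 2) for the striatomesencephalic libraries, against 1.48 ± 0.59 (SD, n = 3) for the striatopallidal ones, a difference of -1.33 that ran from -1.81 to -0.84 when a library was left out.

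Rbfox2 against Rbfox3, the NeuN gene, gave the tightest ratio of the family. There were 47.8 and 43.9 counts of Rbfox2 for each count of Rbfox3 in the striatomesencephalic libraries, against 16.4, 23.7 and 23.1 in the striatopallidal libraries. The gap between the groups exceeded the range within each of them. On the log2 scale the means were 5.52 ± 0.09 (SD, n = 2) for the striatomesencephalic libraries, against 4.38 ± 0.30 (SD, n = 3) for the striatopallidal ones, a difference of 1.14 that ran from 0.97 to 1.24 when a library was left out. For Rbfox1 against Rbfox3 the groups overlapped, with a difference of -0.18.

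Within the Hu proteins, Elavl2 had 0.517 and 0.441 counts for each count of Elavl4 in the striatomesencephalic libraries, against 1.73, 3.91 and 19.2 in the striatopallidal libraries. The ratio was below 1 in both striatomesencephalic libraries and above 1 in all 3 striatopallidal libraries, though where it stands relative to 1 also depends on transcript length. The mean log2 ratio was -1.07 ± 0.16 (SD, n = 2) for the striatomesencephalic libraries, against 2.34 ± 1.77 (SD, n = 3) for the striatopallidal ones, a difference of -3.41. Striatopallidal replicate 3, with its low Elavl4 count, gave the most extreme ratio, and without it the difference was -2.44. For Elavl2 against Elavl3 the ratios were 0.645 and 0.432 in the striatomesencephalic libraries, against 1.25, 6.93 and 0.905 in the striatopallidal libraries. Those groups did not overlap either, while those of Elavl3 against Elavl4 and of Celf2 against Celf4 did.

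**Figure D3:**
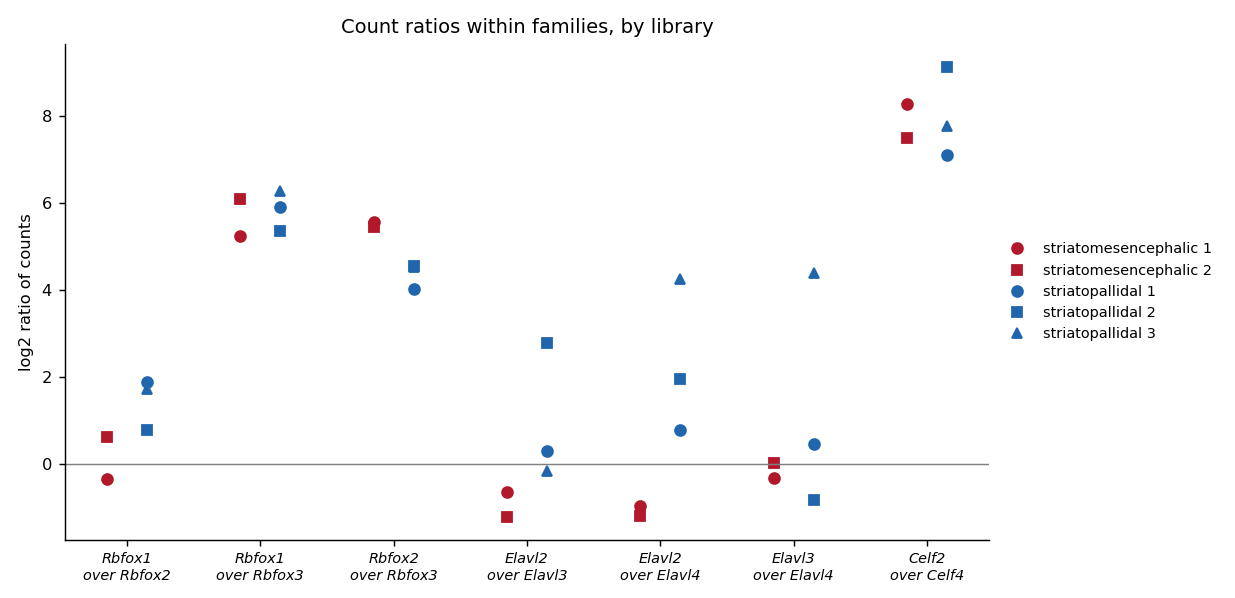
Log2 ratio of counts (y axis) for the 7 pairs of genes within a family, by library, with striatomesencephalic libraries in red to the left and striatopallidal libraries in blue to the right. Rbfox1 over Rbfox2, Elavl2 over Elavl3 and Elavl2 over Elavl4 are higher in all striatopallidal libraries, and Rbfox2 over Rbfox3 is higher in both striatomesencephalic libraries.

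Summed over the 10 genes, the set took 5169 and 4242 CPM in the striatomesencephalic libraries, against 4846, 5587 and 4188 CPM in the striatopallidal libraries. The mean was 4706 ± 656 CPM (SD, n = 2) for the striatomesencephalic libraries, against 4874 ± 700.2 CPM (SD, n = 3) for the striatopallidal ones, a difference smaller than either SD. In TMM-scaled CPM the means were 4558 ± 553 (SD, n = 2) for the striatomesencephalic libraries, against 5142 ± 1812 (SD, n = 3) for the striatopallidal ones, a difference larger than the striatomesencephalic SD and smaller than the striatopallidal SD. Without striatopallidal replicate 2 the order of the CPM means turned, at 4706 CPM for the striatomesencephalic libraries against 4517 CPM for the remaining striatopallidal ones. Rbfox1, Rbfox2 and Celf2 together gave 88.3% to 92.9% of these reads, a share that also reflects transcript length. Across the libraries, the genes most alike were Rbfox1 and Nova1, with a root mean square difference of 0.27 between their centred log2 CPM over 5 libraries, and next Rbfox2 and Khdrbs2 with 0.33. The least alike were Elavl2 and Elavl4, followed by Elavl3 and Elavl4 at 1.87. Among all genes with a symbol, B3galt5, a galactosyltransferase gene, had the profile nearest to that of Rbfox1, the member with the smallest edgeR p, at 0.04. Mon2 followed at 0.06 and Rexo1 at 0.07.

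The direction of the authors' deposited table was read from the signs of its fold changes against the counts. By that reading its fold changes run the other way, striatopallidal minus striatomesencephalic. A general match of signs with the fits above was therefore built in. In the authors' deposited table Rbfox1 had a log2 fold change of 0.51 (p = 0.0596), Elavl2 1.98 (p = 0.0655) and Rbfox2 -0.74 (p = 0.0914). All 3 had an adjusted p of 0.927 in the authors' deposited table, where 0 of 12054 genes had one below 0.05 and 546 had an unadjusted p below 0.05. The other 7 genes had adjusted p-values of 0.927 to 0.998 in the authors' deposited table. Of the 10 genes, 6 were higher in the striatomesencephalic group and 4 in the striatopallidal group in the authors' deposited table, where the edgeR fit above had 3 and 7. The genes with the opposite direction in the authors' deposited table were Elavl3 (-0.09), Celf4 (-0.08) and Nova1 (-0.0079).

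The paralogs of the 10 genes were also examined. Of 8 tested, 5 had positive and 3 negative fold changes, with a median of 0.32, and 0 passed with edgeR. Nova2, the second Nova gene, had 64 and 48179 counts in the striatomesencephalic libraries, against 139, 137 and 922 counts in the striatopallidal libraries. Its value thus rested on striatomesencephalic replicate 2 alone: the log2 fold change was 5.95 ± 2.05 (SE) with all libraries and -2.53 without that library. DESeq2 called it with an adjusted p of 0.0167, where edgeR's adjusted p was 0.779. Celf5 had -0.71 ± 0.53 (SE), which was -0.32 without striatomesencephalic replicate 2, -0.23 without striatopallidal replicate 2 and -1.22 without striatomesencephalic replicate 1. Khdrbs3 (SLM2), the close relative of Khdrbs2, had a fold change of the same sign at 0.61 ± 0.47 (SE), with 234 and 128 CPM in the striatomesencephalic libraries against 99.7, 118 and 111 CPM in the striatopallidal libraries. Its groups overlapped in TMM-scaled CPM, and the fold change was 0.13 without striatomesencephalic replicate 1 and 0.97 without striatomesencephalic replicate 2.

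Other regulators of neural splicing gave 8 positive and 5 negative fold changes among 13 tested genes, with a median of 0.27. Ptbp3, a polypyrimidine tract binding protein, stood at 167 and 78.4 CPM in the striatomesencephalic libraries, against 23.9, 28.7 and 57.5 CPM in the striatopallidal libraries. The groups did not overlap, and the log2 fold change was 1.66 ± 0.61 (SE), with an unadjusted p of 0.0293 and an adjusted p of 0.779 by edgeR. It was 1.04 without striatomesencephalic replicate 1. Raver2, a partner of polypyrimidine tract binding proteins, had 2.28 ± 1.25 (SE), and Msi1, a Musashi protein, had 0.80 ± 0.67 (SE), which was -0.20 without striatomesencephalic replicate 1. The 13 SR proteins, splicing activators rich in arginine and serine, had a median of 0.04, with 8 positive and 5 negative. Among them Srsf12 had 1.54 ± 0.78 (SE), Srsf5 -0.62 ± 0.37 (SE) and Srsf7 0.68 ± 0.46 (SE). Srsf12 was 0.78 without striatomesencephalic replicate 2, and Srsf7 was 0.44 without striatopallidal replicate 2.

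The 24 hnRNP, PCBP and FET proteins, which often repress splicing, had a median of -0.02, with 11 positive and 13 negative. Hnrnpa1 had 0.89 ± 0.44 (SE), Hnrnpl 0.65 ± 0.44 (SE), which was 0.38 without striatomesencephalic replicate 1, and Hnrnpul1 -1.46 ± 0.76 (SE). The 26 core spliceosome genes had a median of 0.25, with 16 positive and 10 negative. Snrpc, a U1 protein, had 1.82 ± 0.78 (SE) and Prpf3, a tri-snRNP protein, 1.21 ± 0.55 (SE), which was 0.67 without striatomesencephalic replicate 1. Sf3a2 had -4.70 ± 2.08 (SE) with counts of 48 and 24 in the striatomesencephalic libraries against 92, 2338 and 38 in the striatopallidal libraries. The high count was again in a single library, striatopallidal replicate 2, and the fold change was -0.62 without it.

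RNA-binding proteins of translation, transport and stability, 26 in number, had a median of -0.25, with 11 positive and 15 negative. Cpeb1, which controls polyadenylation in the cytoplasm, had -1.68 ± 0.86 (SE), the stress granule protein Caprin1 -0.59 ± 0.38 (SE) and Samd4a, a Smaug repressor, 1.27 ± 0.66 (SE). Cpeb1 was -2.72 without striatomesencephalic replicate 1 and -1.07 without striatomesencephalic replicate 2. No gene of these lists passed with edgeR over all genes, where the smallest adjusted p was 0.779. DESeq2 called Nova2 alone among them, but it gave no p-value for Sf3a2.

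A list of 23 transcripts known as targets of these families had a median of -0.05, with 10 positive and 13 negative fold changes. In CPM, 3 had higher values in both striatomesencephalic libraries and 8 had higher values in all striatopallidal libraries, against 11.2% and 9.91% of all genes in these directions. Counts per gene do not measure how these transcripts are spliced, so they do not read out the activity of the 10 genes. At an unadjusted p below 0.05, edgeR had 0 positive and 3 negative members (Snap25, Cacna1c and Amigo2), against 2.93% positive and 3.14% negative of all genes tested. Snap25, a SNARE protein of vesicle release, stood at 548 and 533 CPM in the striatomesencephalic libraries, against 991, 635 and 1414 CPM in the striatopallidal libraries. Its log2 fold change was -0.94 ± 0.34 (SE), and that of Cacna1c, an L-type calcium channel subunit, was -1.20 ± 0.44 (SE), each with an adjusted p of 0.779 by edgeR. Amigo2, an adhesion protein, had 142 and 212 counts in the striatomesencephalic libraries, against 381, 25717 and 264 counts in the striatopallidal libraries. Its fold change of -5.85 ± 2.35 (SE) rested on striatopallidal replicate 2 and became -0.68 without that library.

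**Figure D4:**
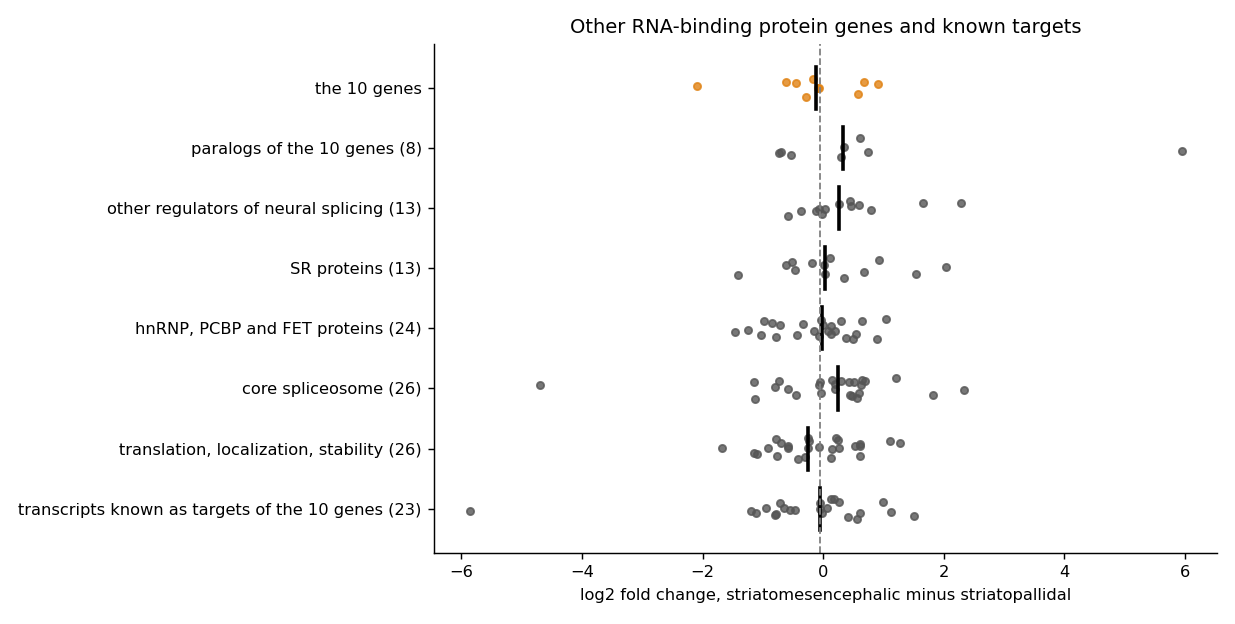
Log2 fold change (x axis, striatomesencephalic minus striatopallidal) of each tested gene in the set (orange) and in 7 other lists (grey), with the number tested in brackets. Points are spread vertically for display, black bars are medians and the dashed line is the median of all genes tested, -0.06. The list medians lie between -0.25 and 0.32, and the isolated points are Nova2 at 5.95, Sf3a2 at -4.70 and Amigo2 at -5.85.

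Markers of other cells were read in the same libraries, since Rbfox2, Celf2 and several of the other lists are also expressed in glia. The 9 pan-neuronal markers matched of 10 summed to 4513 and 4244 CPM in the striatomesencephalic libraries, against 4260 (replicate 1), 4486 and 4436 CPM in the striatopallidal libraries. The 8 oligodendrocyte markers summed to 5945 and 7440 CPM in the striatomesencephalic libraries, against 7154, 6920 and 5245 CPM in the striatopallidal libraries. The 9 astrocyte markers summed to 1875 and 1476 CPM in the striatomesencephalic libraries, against 2021, 1386 and 1606 CPM in the striatopallidal libraries. All 3 sums overlapped between the groups, but single markers within them did not. Gfap, an astrocyte filament protein, had 11.5 and 3.85 CPM in the striatomesencephalic libraries, against 243, 175 and 87.7 CPM in the striatopallidal libraries, and DESeq2 called it with an adjusted p of 5.84e-06, where edgeR's was 0.779. Of the 9 astrocyte markers, Gfap and Aqp4 were higher in every striatopallidal library, and Slc1a2 and Aldh1l1 in both striatomesencephalic libraries. Syn1, a synaptic vesicle protein of the pan-neuronal list, had 19.5 and 40.9 CPM in the striatomesencephalic libraries. In the striatopallidal libraries it had 202, 510.2 and 264 CPM, with an adjusted p of 0.00135 by DESeq2 and 0.779 by edgeR. Of the 9 pan-neuronal markers, Syn1 and Snap25 were higher in every striatopallidal library, and Syt1 in both striatomesencephalic libraries. The 11 markers of spiny projection neurons, which include the receptors and peptides typical of either pathway, summed to 13490 and 19211 CPM in the striatomesencephalic libraries, against 23246, 19711 and 22740 CPM in the striatopallidal libraries, without overlap. The highest value of Rbfox2, in striatomesencephalic replicate 1, stood beside the second highest astrocyte sum and the lowest sum of spiny projection neuron markers. The highest astrocyte sum, in striatopallidal replicate 1, stood beside 481 CPM of Rbfox2. The part of glial RNA or of these markers in the results was not tested. Interneuron markers, 4 of 7 matched, summed to 44.8 and 74.5 CPM in the striatomesencephalic libraries, against 85.9, 60.4 and 126 CPM in the striatopallidal libraries. Among them Sst and Chat were higher in every striatopallidal library, and Calb2 in both striatomesencephalic libraries. Calb2 had 51 and 277 counts there, against 12, 9 and 2 in the striatopallidal libraries, with an adjusted p of 0.0423 by DESeq2 and 0.779 by edgeR. Sums of precursor, microglial and vascular markers, with 2 of 3, 2 of 7 and 3 of 5 matched, were between 9.35 and 83.1 CPM in all libraries. Markers of every list were matched by symbol in the authors' deposited comparison. Those absent from it were left out of the sums whatever their counts, so the sums do not cover the full lists. Vwf, an endothelial gene, had 0 counts in striatopallidal replicate 2.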

How the data were processed

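The authors deposited raw read counts per Ensembl gene for each of 5 libraries, and every fit started from them. Build Rnor_6.0 and the tools TopHat2, HTSeq, limma and edgeR are named per the submitters' processing notes. Their roles, their versions and any strand setting were not given in the sources used here. No molecular identifiers are named in the labels. Symbols came from the authors' deposited table of log2 fold changes and p-values, which pairs names with 11904 of the 13811 genes tested, so 1907 had none. Multi-library tables of scaled values were not used.

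Genes were kept by filterByExpr (minimum count 10), scaled by TMM and tested with glmQLFit and glmQLFTest in edgeR 4.0.16 (R 4.3.3) on all 5 libraries, as striatomesencephalic minus striatopallidal. The SE is the size of the fold change over the square root of F. P-values were adjusted by Benjamini-Hochberg over all genes. CPM values use library totals unless TMM is named. DESeq2 1.42.0, limma 3.58.1 (voom), other scalings and filters, each library left out and a replicate block were alternatives. An exact permutation test of 2 against 3 libraries cannot go below 0.1 and was not used. Libraries of no pair agreed within sampling noise (chi-square per degree of freedom 164 to 585).

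The genes and lists were chosen with earlier results of these data known. Named genes were the 10 members, the 3 genes with the smallest p of each other list and the 3 profiles nearest to the member with the smallest p. Profiles were TMM log2 CPM with a prior count of 0.5.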

Additional observations from a re-analysis of the deposited data

How the results depend on the processing

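The number of genes called over all genes, 0 with edgeR, was 219 with DESeq2. It was 0 with limma voom, under the other scalings and filters, and whichever striatopallidal library was left out. The replicate block had 0 as well, but with 5 libraries it left little from which to estimate the spread, so it could hardly call a gene. The same 10 genes had 0 calls under all 13 settings tried. Their median log2 fold change, -0.12, ran from -0.16 to -0.08 under other tools, scalings and filters and the block, and from -0.23 to -0.04 when a library was left out. The median over all genes of each fit, -0.06 in the main one, moved as well. It ran from -0.14 to 0.02 under those settings, and from -0.27 to 0.04 when a library was left out. The count of the 10 genes without overlap, 3 in CPM, was 2 in TMM-scaled CPM and 2 with the factors of the labels, and ran from 3 to 6 when a library was left out, where it can only stay or grow. Signs of single genes turned in few settings. Elavl3 was 0.41 with the replicate block, and it ran from -0.58 to 0.45 when a library was left out. In the same fits Celf4 ran from -0.51 to 0.27, Celf2 from -0.49 to 0.18, Nova1 from -0.19 to 0.0207, Msi1 from -0.20 to 1.39 and Nova2 from -2.53 to 7.41. The cause of these turns was not tested. With the alternatives chosen after seeing the data, genes with an unadjusted p below 0.05, 839 with edgeR, were 1496 with DESeq2 and 643 with limma voom. The replicate numbers share no stated animal or day. Deviations of same-numbered libraries from their group means had correlations across genes of -0.02 for number 1 and -0.03 for number 2, so the numbers were not taken as pairs. The biological coefficient of variation between libraries was 0.822. No library was thinned, so how far depth limits these comparisons was not tested.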
